A study of Mus musculus with 8 samples.

Results

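The libraries made with the 2 hairpins against Hnrnpu, hnRNPU_sh1 and hnRNPU_sh2, were set directly against each other. They are 2 of the 8 libraries of the study and were chosen by their labels alone. Hairpin 1 stands over hairpin 2 in every difference below. Both hairpins are short hairpin RNAs, designed to lower one messenger RNA, and both were introduced by transduction into red cell precursors of C57BL/6 mouse embryos. The erythroid progenitors were taken from E14.5 fetal livers by magnetic sorting and kept for 24 h in medium with erythropoietin, which starts terminal division and differentiation. Total RNA was depleted of ribosomal RNA, made into strand-specific libraries and sequenced. The other 6 libraries, described by the same protocol, carried Bloodlinc hairpin 1 or 2 (a long noncoding RNA), a Bloodlinc expression vector, an empty vector, or a control hairpin for each knockdown. They serve only to show where a level lies in the study. The labels do not say whether the 8 libraries were made in one batch, so in any comparison with the other 6 the hairpins and a batch cannot be told apart. The control hairpin of the Hnrnpu knockdown is not part of the contrast. Each arm is 1 library, and no label states whether one pool of cells or separate pools received them, so no test between conditions exists and every interval covers counting error only.

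Hnrnpu encodes hnRNP U (also SAF-A), an abundant nuclear protein that binds RNA and chromatin and takes part in splicing and in the anchoring of long noncoding RNAs in the nucleus. Hairpins against one gene share the intended target but not their sequence. The genes that differ most here belong to the type I interferon response, in which sensors such as RIG-I and MDA5 detect foreign RNA and interferon is released. Its receptor activates STAT2, which with IRF9 takes part in binding the interferon-stimulated response element of antiviral genes.

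Both libraries were shallow. Gene counts came to 2931627 with hairpin 1 and 2612916 with hairpin 2, against 23682993 to 34540691 in the other 6 libraries. Protein-coding genes held 1254918 and 1417659 of them, or 42.8% with hairpin 1 and 54.3% with hairpin 2, against 65.8% to 76.9% in the other 6. A count of 0 allows up to 2.39 CPM with hairpin 1 and 2.12 CPM with hairpin 2 (3 counts), where CPM scales the counts to the total in protein-coding genes. Of the uniquely placed counts, 89.7% with hairpin 1 and 86.6% with hairpin 2 did not fall in any gene, while the other 6 libraries had 21.7% to 30.1%. The part of these features in the results below was not tested.

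The targeted gene itself differed by less than 2-fold. Hnrnpu (GRCm38, chromosome 1, 178321108 to 178337797, minus strand) had 438 CPM (550 counts) with hairpin 1 and 667 CPM (946 counts) with hairpin 2. In the other 6 libraries it ranged over 326 to 1334 CPM (median 628), so that both hairpin libraries lay inside the span of the others. The log2 difference was -0.61 (95% interval -0.76 to -0.45), which does not reach 2-fold, and it lay 0.11 below the median difference of all genes described next. Its paralogs had like values: Hnrnpul1 had 274 CPM (344 counts) with hairpin 1 and 435 CPM (617 counts) with hairpin 2 (log2 -0.67). Hnrnpul2 had 111 CPM (139 counts) with hairpin 1 and 176 CPM (250 counts) with hairpin 2 (log2 -0.67). The hairpin sequences are not in the files used here, so the part of the transcript each one matches is not analysed here.

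Across the genome the largest differences were in interferon-stimulated genes, which for the most part were higher with hairpin 1 than with hairpin 2 or in the other 6 libraries. The summed level of each interferon list below was also higher with hairpin 2 than in any of the other 6. Of 20195 protein-coding genes, 8545 had at least 20 counts in the 2 libraries together. A gene was counted as higher or lower with hairpin 1 where the ratio of its CPM lay past 2-fold over its whole 95% interval (exact, conditional on the summed counts). By that rule 169 genes were higher (1.98% of those tested) and 337 were lower (3.94%). The median log2 difference of all 8545 genes was -0.49 (middle 50% from -0.99 to 0.06), with 27.2% of genes above 0, so the zero point of CPM matters for every gene of modest difference. TMM scaling moved that median to -0.07 and gave 344 higher and 71 lower genes, so that 82.9% of calls were higher, against 33.4% with CPM. Over 8 scalings every log2 difference moved by one amount, from -0.34 (CPM over all gene IDs) to 0.50 (DESeq2's size factors), and a value between -0.50 and 0.34 therefore changes sign under at least 1 of them. Past 2-fold under every scaling were 94 higher genes (1.1% of those tested) and 47 lower genes (0.55%). CPM over all gene IDs, the lowest shift, sets the 94, and DESeq2's size factors, the highest, set the 47.

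**Figure D1:**
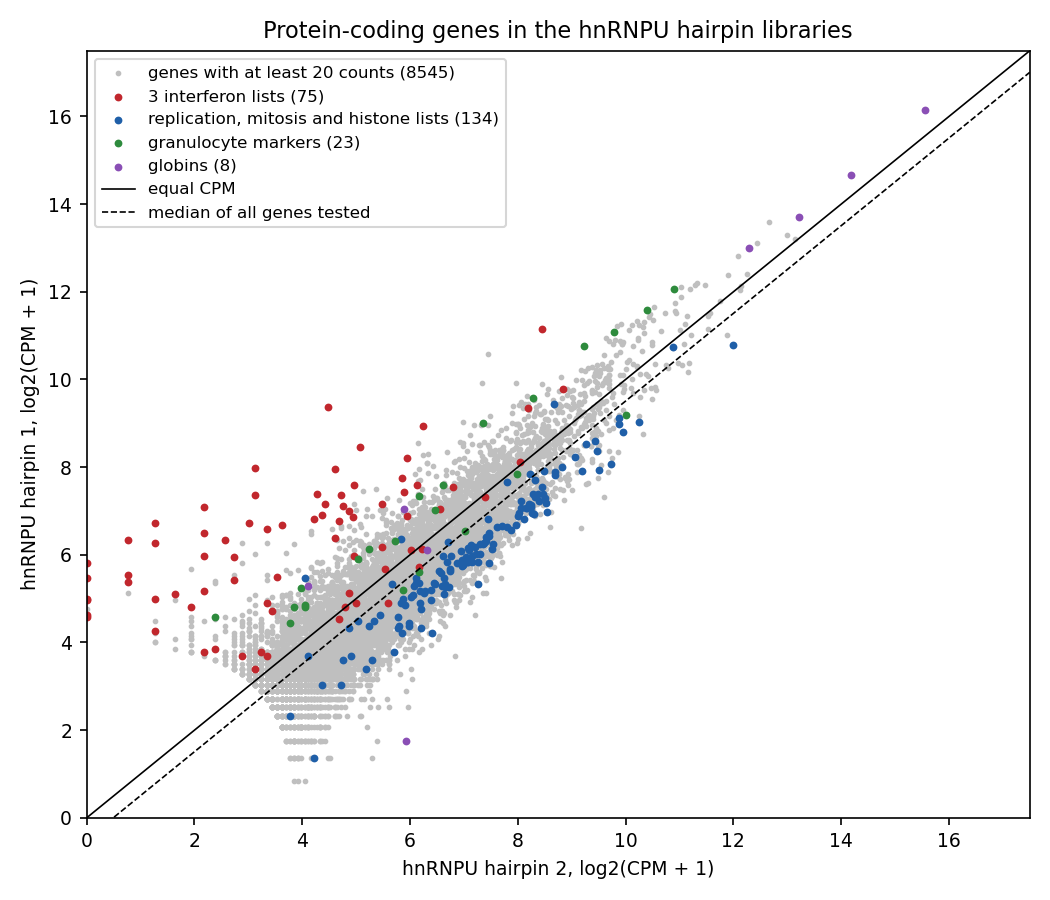
Each point is 1 of 8545 protein-coding genes, with log2(CPM + 1) with hairpin 2 on the x axis and with hairpin 1 on the y axis; the solid line marks equal CPM and the dashed line the median difference of -0.49. Most members of the 3 interferon lists lie far above both lines, while replication, mitosis and histone genes lie mostly below the dashed line.

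The spread between the hairpins was set beside that of other pairs, which come from libraries with at least 23682993 gene counts. Among genes with a mean of at least 100 CPM, 371 of 1897 (19.6%) differed more than 2-fold between the 2 hnRNPU hairpins, 115 higher and 256 lower. Between the 2 Bloodlinc hairpins it was 219 of 2248 (9.74%), with 94 higher and 125 lower with Bloodlinc hairpin 1. Between the control hairpin libraries of the 2 knockdowns, hnRNPU_shCTL over Bloodlinc_shCTL, it was 305 of 2027 (15%), with 170 higher and 135 lower. The hnRNPU hairpins thus had the largest share of these 3 pairs, although the control pair came near to it, and with a mean of at least 300 CPM the control pair was the larger (19.5%, against 18.2% for the hnRNPU hairpins). At 100 CPM the standard deviation of the log2 differences was largest for the control pair (0.81), then the hnRNPU hairpins (0.77) and the Bloodlinc hairpins (0.63). The median was -0.18 for the hnRNPU hairpins, further from 0 than for the control pair (-0.05) or the Bloodlinc hairpins (-0.03). Over all 8545 genes the Pearson correlation of log2 CPM between the hairpins was 0.878, as a description.

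The position of each library relative to the other 6 showed which hairpin stood apart. Of the 169 higher genes, 119 (70.4%) lay above the range of the other 6 with hairpin 1 while hairpin 2 lay within it, as judged by the 95% Poisson interval of each level, and 40 (23.7%) lay above it with both hairpins. Of the 337 lower genes, 220 (65.3%) lay below the range with hairpin 1 and within it with hairpin 2, and 87 (25.8%) lay within it with both. In 6 of the lower genes hairpin 2 lay above the range and hairpin 1 within it, and in 3 hairpin 2 lay above and hairpin 1 below. Hairpin 1 was therefore the library outside the range for most genes in both directions, on the CPM scale.

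The interferon-stimulated response element is short, and its core was looked for in the promoters of the genes that differed. The windows run from 250 bases before to 50 after the start site in RefSeq (GRCm38.p6), and the letters searched were GAAANNGAAA on either strand, with overlapping matches counted. Those of Isg15, Ifit1, Irgm1 and Oas3, all higher with hairpin 1, are shown because their matches cover a single site, a site with overlapping matches, and a pair of sites. They read 5′ to 3′ on the strand of the gene, with every match in capitals.
Isg15: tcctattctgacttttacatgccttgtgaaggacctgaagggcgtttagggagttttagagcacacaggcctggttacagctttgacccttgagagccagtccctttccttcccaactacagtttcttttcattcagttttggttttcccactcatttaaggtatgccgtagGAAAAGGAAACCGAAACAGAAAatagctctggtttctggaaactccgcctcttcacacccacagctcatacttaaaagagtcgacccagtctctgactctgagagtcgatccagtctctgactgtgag
Ifit1: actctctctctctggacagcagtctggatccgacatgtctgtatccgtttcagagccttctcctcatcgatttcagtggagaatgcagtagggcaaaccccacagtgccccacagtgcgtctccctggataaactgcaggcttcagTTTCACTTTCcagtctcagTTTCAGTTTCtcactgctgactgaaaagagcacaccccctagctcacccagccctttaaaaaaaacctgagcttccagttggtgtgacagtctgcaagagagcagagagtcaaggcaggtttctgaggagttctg
Irgm1: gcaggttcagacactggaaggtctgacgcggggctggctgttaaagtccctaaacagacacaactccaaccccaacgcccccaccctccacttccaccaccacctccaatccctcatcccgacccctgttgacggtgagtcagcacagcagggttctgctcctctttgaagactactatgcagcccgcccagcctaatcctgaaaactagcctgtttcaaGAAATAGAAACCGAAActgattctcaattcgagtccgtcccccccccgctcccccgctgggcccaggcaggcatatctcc
Oas3: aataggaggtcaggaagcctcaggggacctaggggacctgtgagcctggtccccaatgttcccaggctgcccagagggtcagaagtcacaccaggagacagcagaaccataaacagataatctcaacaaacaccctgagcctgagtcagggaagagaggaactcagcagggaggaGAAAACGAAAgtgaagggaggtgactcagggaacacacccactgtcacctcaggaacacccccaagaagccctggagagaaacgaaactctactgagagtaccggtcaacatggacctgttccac
The windows are chr4:156200769-156201068, minus strand, for Isg15; chr19:34640639-34640938, plus strand, for Ifit1; chr11:48871371-48871670, minus strand, for Irgm1; and chr5:120777610-120777909, minus strand, for Oas3. Isg15 has 3 overlapping matches, Ifit1 and Irgm1 have 2 each, and Oas3 has 1. The letters occurred in 943 of 27025 promoters (3.49%), and in 217 of the 6888 tested genes that had a promoter in the table (3.15%). Among genes higher with hairpin 1 they occurred in 35 of 140 (25%), and among genes lower with hairpin 1 in 7 of 270 (2.59%). Members of the interferon lists that were higher had them in 21 of 40 promoters (52.5%), tested members that were not higher in 3 of 20 (15%), and higher genes outside those lists in 14 of 100 (14%). The shares describe letters in a window and say nothing of binding.

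The largest differences in the whole comparison were antiviral genes with clear counts with hairpin 1 and few or none with hairpin 2. All of the 15 highest genes with at least 20 CPM are known interferon-induced genes: Oas2, Mx1, Ifit3, Mndal, Usp18, Ifi209, Slfn1, Rtp4, Slfn5, Slfn4, Ddx60, Gbp2, Oas3, Trim30d and Isg15.

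Isg15, a ubiquitin-like protein that is joined to other proteins during infection, had 253 CPM (317 counts) with hairpin 1 and 7.76 CPM (11 counts) with hairpin 2. The other 6 libraries had 2.42 to 4.73 CPM (median 3.55), so hairpin 2 lay near them and hairpin 1 far above. The log2 difference was 4.96 (95% interval 4.17 to 6.04). Usp18, the protease that removes ISG15 and dampens the interferon receptor, had 79.7 CPM (100 counts) with hairpin 1 and 0.705 CPM (1 count) with hairpin 2, against 0.468 to 5.19 CPM (median 0.984) in the other 6. With 1 count for hairpin 2 its ratio was 113 (95% interval 19.8 to 4506). Irf7, a factor that amplifies interferon production, had 165 CPM (207 counts) with hairpin 1 and 7.76 CPM (11 counts) with hairpin 2, against 1.23 to 3.91 CPM (median 1.99) in the other 6, with a log2 difference of 4.35 (95% interval 3.54 to 5.43). Parp14, an ADP-ribosyltransferase, had 248 CPM (311 counts) with hairpin 1 and 23.3 CPM (33 counts) with hairpin 2 against 5.91 to 15.7 CPM (median 10.4), and here hairpin 2 too lay above the range of the other 6 (log2 3.39, 95% interval 2.89 to 3.98).

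**Figure D2:**
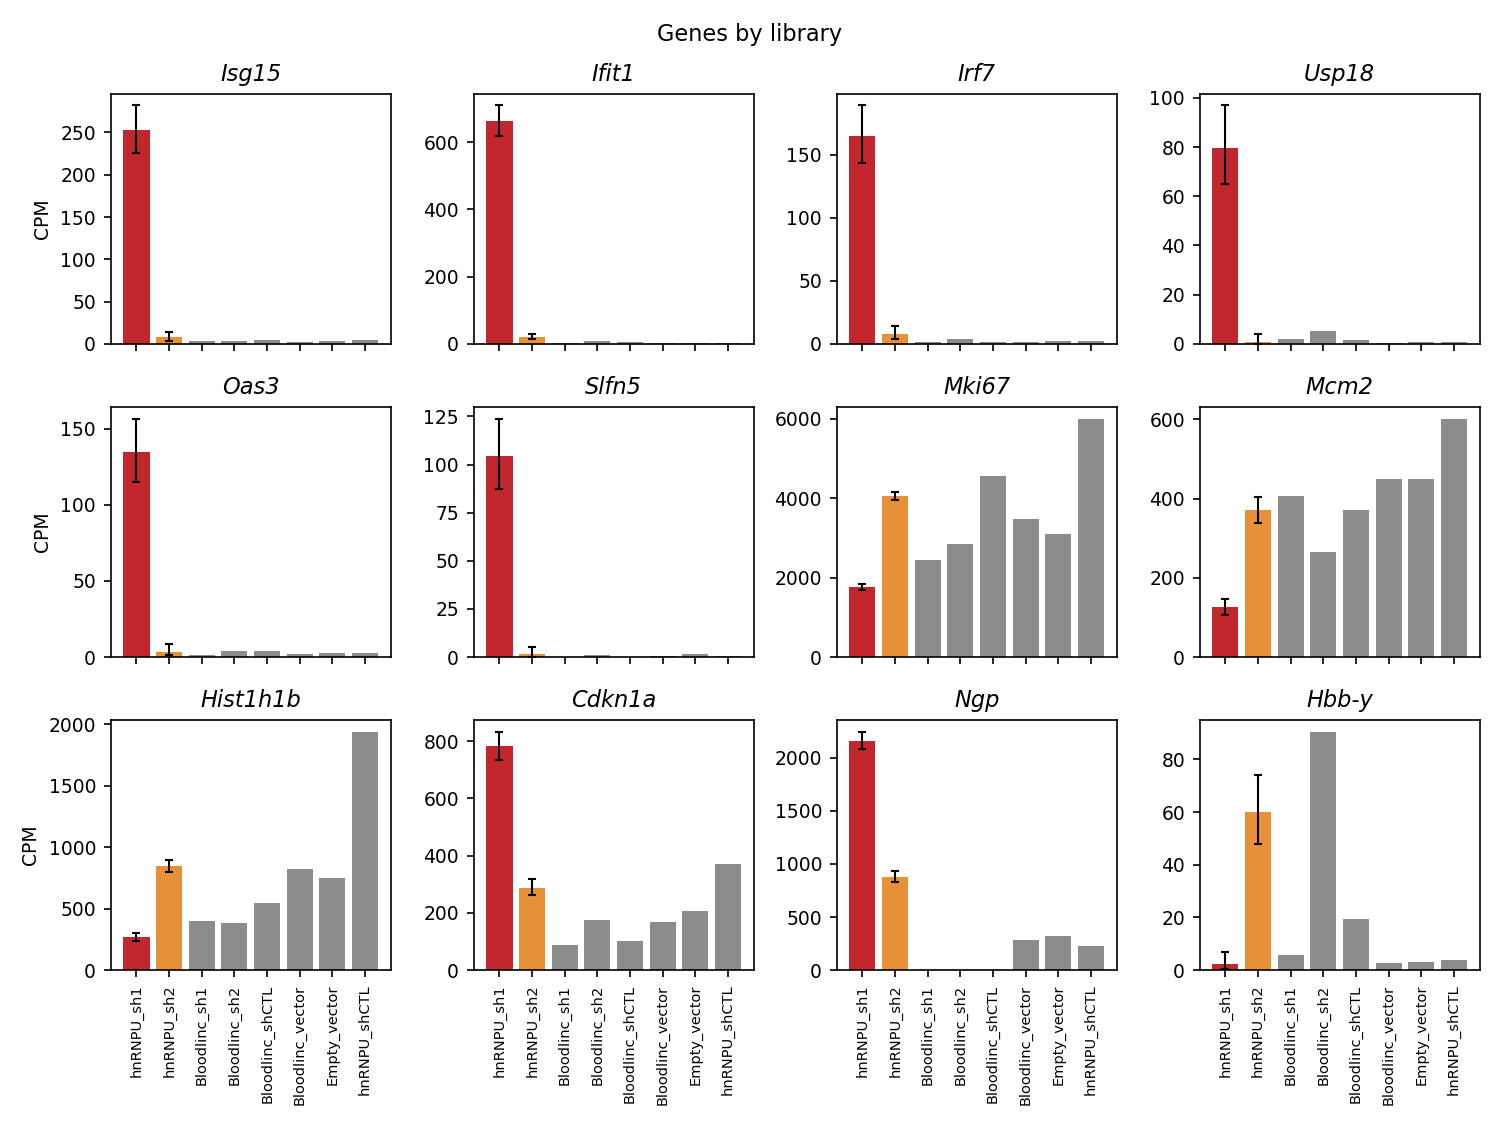
CPM of 12 genes in each of the 8 libraries, with hnRNPU hairpin 1 in red, hnRNPU hairpin 2 in orange and the other 6 in grey; the bars on the hnRNPU libraries are 95% Poisson intervals, which cover counting error only. Isg15, Ifit1, Irf7, Usp18, Oas3 and Slfn5 are tall with hairpin 1 alone, whereas Mki67, Mcm2 and Hist1h1b are lower with hairpin 1 than with hairpin 2 under CPM.

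Sensors and signalling genes were higher in 14 of 28 tested members and lower in 0, with a median log2 difference of 1.58, beside 1.98% of genes higher and a median of -0.49 over all genes tested. Under every scaling 11 were past 2-fold. Of 34 matched members the remaining 6 had fewer than 20 counts; since the minimum is on the sum, a gene low in one library could enter through the other. Their summed level was 3640.1 CPM with hairpin 1 and 1239 CPM with hairpin 2, against 875 to 1099 CPM in the other 6. Stat2, which carries the receptor's signal, had 119 CPM (149 counts) with hairpin 1 and 19.8 CPM (28 counts) with hairpin 2 (log2 2.57, 95% interval 1.998 to 3.23). The RNA sensors behaved alike: Ddx58, which encodes RIG-I, had 167 CPM (210 counts) with hairpin 1 and 18.3 CPM (26 counts) with hairpin 2, and Ifih1, which encodes MDA5, had 115 CPM (144 counts) with hairpin 1 and 29.6 CPM (42 counts) with hairpin 2. The dsRNA editor Adar had 172 CPM (216 counts) with hairpin 1 and 58.5 CPM (83 counts) with hairpin 2 (log2 1.55, 95% interval 1.18 to 1.94). The receptor chains Ifnar1 and Ifnar2 had log2 differences of 0.49 and 0.74, the kinases Jak1 and Tyk2 had 0.07 and -0.11, and the adaptor Mavs had 0.09, none past 2-fold. Those of Jak1, Tyk2 and Mavs change sign with the scaling. Ifnb1 and Ifna4, which encode type I interferons, had 0 counts in both libraries, which at this depth leaves up to 2.39 CPM with hairpin 1 and 2.12 CPM with hairpin 2.

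Antiviral effectors were higher in 22 of 29 tested members and lower in 0, beside 1.98% and 3.94% of all genes tested. Their median log2 difference was 2.71, and 19 held under every scaling. Summed, they reached 6625 CPM with hairpin 1 and 1723 CPM with hairpin 2, against 929 to 1111 CPM in the other 6 libraries. Oas2, an enzyme that makes 2′-5′ oligoadenylate to activate RNase L, had 55.0 CPM (69 counts) with hairpin 1 and 0 CPM (0 counts) with hairpin 2. By the lower end of its 95% interval it was at least 20.6-fold higher, and the other 6 had at most 0.479 CPM. By the same measure, used here for genes with 0 counts with hairpin 2, Mx1, a GTPase that traps viral ribonucleoproteins, was at least 16.0-fold higher (54 counts with hairpin 1 and 0 with hairpin 2). Ifit3 was at least 11.4-fold higher (39 counts with hairpin 1 and 0 with hairpin 2) and Rtp4 at least 8.33-fold (29 counts with hairpin 1 and 0 with hairpin 2). Ifit1, which binds RNA with foreign cap structures, had 663 CPM (832 counts) with hairpin 1 and 21.2 CPM (30 counts) with hairpin 2, against 1.42 to 7.76 CPM (median 3.54) in the other 6, where hairpin 2 too lay above the range. Its log2 difference was 4.94 (95% interval 4.44 to 5.55). Rsad2, which encodes viperin, had the most counts of the list with hairpin 1, at 2279 CPM (2860 counts) with hairpin 1 and 348 CPM (493 counts) with hairpin 2; its log2 difference was 2.71 (95% interval 2.57 to 2.85) and both hairpins lay above the 29.7 to 112 CPM (median 53.1) of the other 6. Oas3 had 135 CPM (169 counts) with hairpin 1 and 3.53 CPM (5 counts) with hairpin 2 (log2 5.11, 95% interval 4.004 to 6.90). Ddx60, a helicase, had 57 counts with hairpin 1 and 1 with hairpin 2, for a ratio of 64.4 (95% interval 11.1 to 2587). A few members did not differ past 2-fold: Pml had a log2 difference of -0.09, Ifitm2 0.02 and Apobec3 -0.46, and all of these change sign under some scaling.

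Schlafen genes and interferon-induced GTPases were higher in 14 of 18 tested members, beside 1.98% of all genes tested. All 14 held under every scaling. The median log2 difference was 3.59, or 3.46 with genes at 0 counts with hairpin 2 set to 3 counts there, and the summed level was 1328 CPM with hairpin 1 and 181 CPM with hairpin 2, against 61.2 to 127 CPM in the other 6. Slfn5 had 104 CPM (131 counts) with hairpin 1 and 1.41 CPM (2 counts) with hairpin 2, for a ratio of 74.0 (95% interval 20.1 to 617), against 0.0579 to 1.44 CPM (median 0.652) in the other 6. Slfn4 had 96 counts with hairpin 1 and 2 with hairpin 2, for a ratio of 54.2 (95% interval 14.6 to 454), and Slfn1 had 30 counts with hairpin 1 and 0 with hairpin 2, which was at least 8.63-fold higher. These Schlafen genes lie together on chromosome 11, between 82951349 and 83190216 on GRCm38. Irgm1, a GTPase of immunity against bacteria inside cells, had 349.8 CPM (439 counts) with hairpin 1 and 32.4 CPM (46 counts) with hairpin 2 (log2 3.42, 95% interval 2.99 to 3.90). Gbp2, a guanylate-binding protein, had 51 counts with hairpin 1 and 1 with hairpin 2, for a ratio of 57.6 (95% interval 9.89 to 2319.7), and Mndal, of the DNA-sensing Ifi200 family, had 38 counts with hairpin 1 and 0 with hairpin 2 and was at least 11.1-fold higher. Its relative Ifi209, outside the list, was at least 9.55-fold higher (33 counts with hairpin 1 and 0 with hairpin 2), and Trim30d, a tripartite-motif gene, had 43 counts with hairpin 1 and 1 with hairpin 2, for a ratio of 48.6 (95% interval 8.27 to 1963). Several of these families hold near-identical copies, among which counts may be split. Counted together, the 3 interferon lists held 50 of the 169 higher genes, from 75 tested members. Hairpin 1 lay above the range of the other 6 libraries in 18, 25 and 16 of the tested sensing, effector and Schlafen or GTPase members, and hairpin 2 in 4, 5 and 5 of them.

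Class I antigen presentation, also under interferon control, differed in part: 4 of 16 tested members were higher, 0 lower and 1 past 2-fold under every scaling, with a median of 0.27 that changes sign with the scaling. Over all genes tested 1.98% were higher. B2m, the shared light chain, had 424 CPM (532 counts) with hairpin 1 and 138 CPM (196 counts) with hairpin 2 (log2 1.61, 95% interval 1.38 to 1.86). Tap1, the peptide transporter, had 62 counts with hairpin 1 and 17 with hairpin 2 (log2 2.01, 95% interval 1.25 to 2.91), H2-D1 had 458 counts with hairpin 1 and 219 with hairpin 2 (log2 1.24, 95% interval 1.005 to 1.48) and H2-T22 had 29 counts with hairpin 1 and 7 with hairpin 2 (log2 2.14, 95% interval 1.004 to 3.66). Reads of the H2 genes may be shared among copies. Of 11 tested inflammatory cytokines, chemokines and NF-kB targets 0 were past 2-fold in either direction; the members with the highest mean CPM, Nfkb1 and Sod2, had log2 differences of -0.12 and -0.58, of which that of Nfkb1 changes sign with the scaling.

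**Figure D3:**
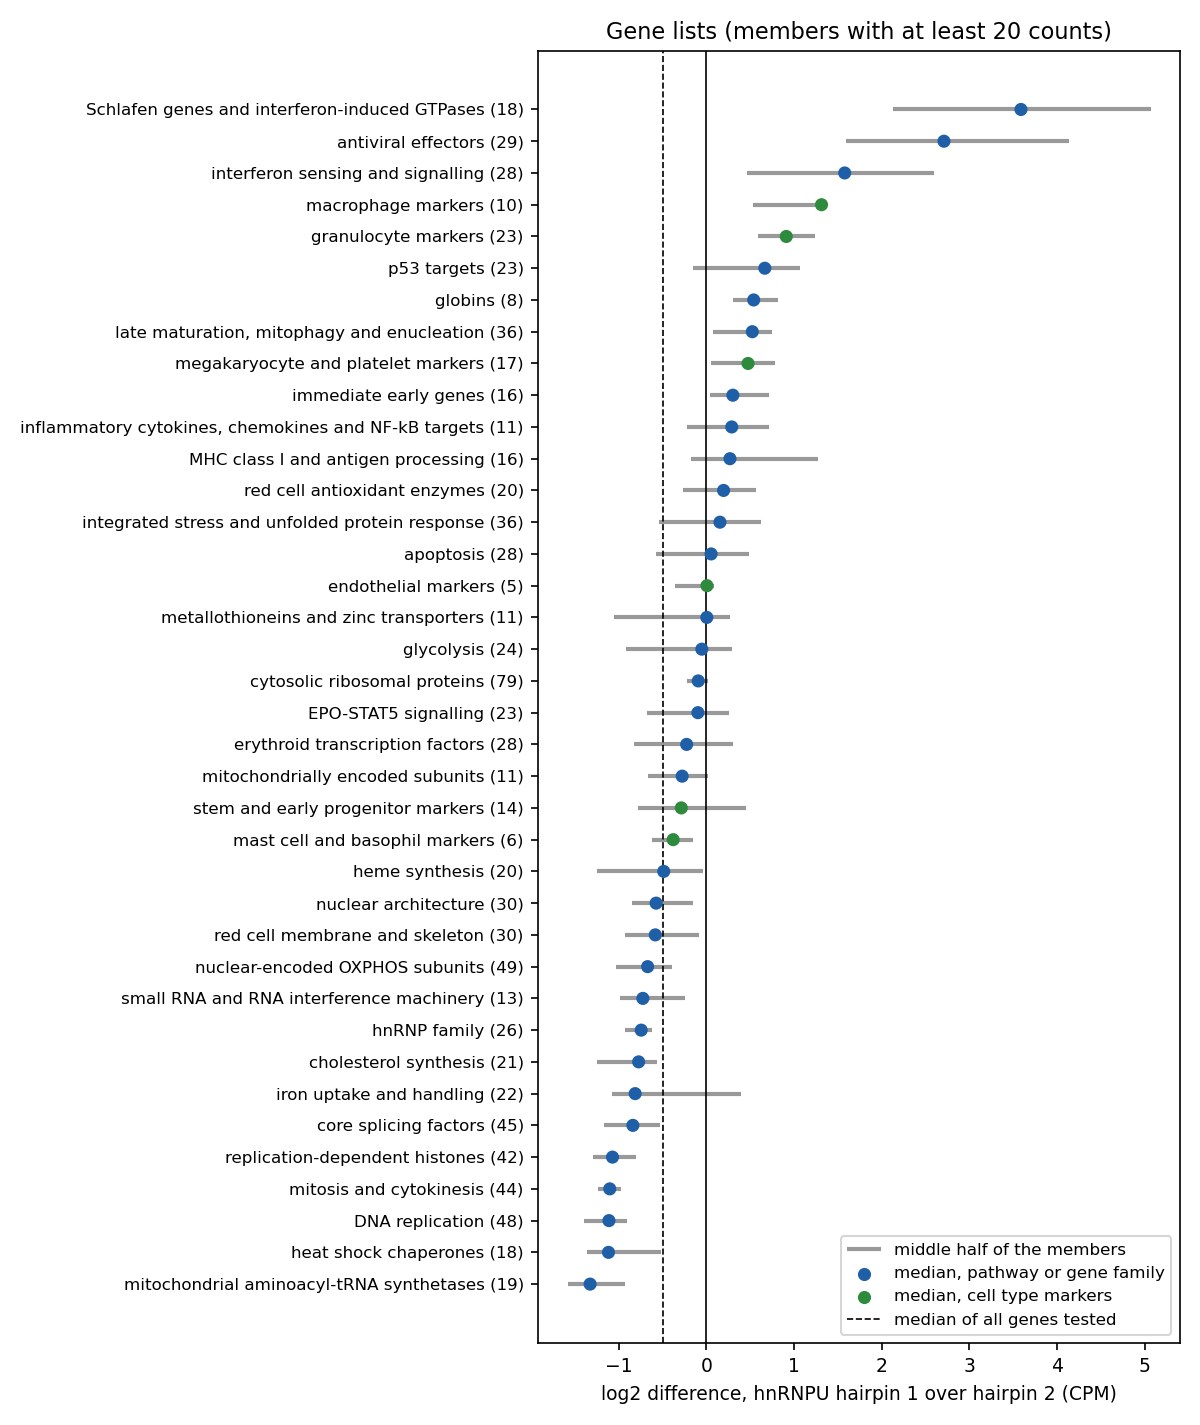
Median log2 difference, hairpin 1 over hairpin 2, of each gene list with at least 5 tested members (number in brackets); grey lines span the middle 50% of members and the dashed line is the median of all genes tested, -0.49. The 3 interferon lists stand furthest to the right, followed by macrophage and granulocyte markers; medians between -0.50 and 0.34 change sign under at least 1 scaling.

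Proliferation genes lay on the other side. DNA replication genes were lower with hairpin 1 in 6 of 48 tested members, beside 3.94% of all genes tested, and higher in 0. All 48 had a negative log2 difference, and the median was -1.11, against -0.49 for all genes. Their summed level was 3885 CPM with hairpin 1 and 8063 CPM with hairpin 2, against 9825 to 13801 CPM in the other 6, so both hairpins lay below the others and hairpin 1 further. Mcm2, a subunit of the replicative helicase, had 126 CPM (158 counts) with hairpin 1 and 370.3 CPM (525 counts) with hairpin 2, against 266 to 602 CPM (median 427) in the other 6 (log2 -1.55, 95% interval -1.82 to -1.30). Cdc6, which loads that helicase, had 39.0 CPM (49 counts) with hairpin 1 and 152 CPM (215 counts) with hairpin 2 (log2 -1.95, 95% interval -2.44 to -1.50) and was the 1 member past 2-fold under every scaling. Orc1, of the origin recognition complex, had 16 counts with hairpin 1 and 72 with hairpin 2 (log2 -1.96), and Tk1, thymidine kinase, had 24 counts with hairpin 1 and 103 with hairpin 2 (log2 -1.91).

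Mitosis and cytokinesis genes were lower in 7 of 44 tested members, beside the same 3.94%, and higher in 0, with a median of -1.10. None of the 7 held under every scaling. The summed level was 6904 CPM with hairpin 1 and 13628 CPM with hairpin 2, against 12885 to 24456 CPM in the other 6, so hairpin 2 lay within the range and hairpin 1 below it. Mki67, the proliferation marker Ki-67, had 1771 CPM (2222 counts) with hairpin 1 and 4059 CPM (5754 counts) with hairpin 2, against 2456 to 6011 CPM (median 3290.3) in the other 6 (log2 -1.20, 95% interval -1.27 to -1.13). Espl1, the separase, had 47 counts with hairpin 1 and 149 with hairpin 2 (log2 -1.48), and Cenpf, a kinetochore protein, had 152 counts with hairpin 1 and 447 with hairpin 2 (log2 -1.38). Ncapd2, of condensin, had 182 counts with hairpin 1 and 522 with hairpin 2 (log2 -1.34), and Prc1, of the central spindle, had 141 counts with hairpin 1 and 393 with hairpin 2 (log2 -1.30). Replication-dependent histones were lower in 9 of 42 tested members, beside 3.94% of all genes, and higher in 0, with a median of -1.07 and 1 held under every scaling. Their summed level was 6405 CPM with hairpin 1 and 11664 CPM with hairpin 2, both within the 5229 to 25346 CPM of the other 6. Hist1h1b, a linker histone, had 269 CPM (337 counts) with hairpin 1 and 846 CPM (1200 counts) with hairpin 2, against 386 to 1941 CPM (median 646) in the other 6 (log2 -1.65, 95% interval -1.83 to -1.48). Hist1h2an, the member that held, had 22 counts with hairpin 1 and 119 with hairpin 2 (log2 -2.24), Hist1h2bj had 69 counts with hairpin 1 and 250 with hairpin 2 (log2 -1.67) and Hist3h2ba had 2 counts with hairpin 1 and 25 with hairpin 2, for a ratio of 0.0904 (95% interval 0.0104 to 0.362). Histone copies are near-identical, and fewer cells in cycle cannot be told apart from less RNA per cell in bulk samples, here or for any other list.

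Targets of p53 went the other way, with 5 of 23 tested members higher, beside 1.98% of all genes tested, 0 lower and a median of 0.67. Of the 5, 0 were past 2-fold under every scaling, while under TMM 7 of the 23 were higher, beside 4.03% of all genes tested. Cdkn1a, the cell cycle inhibitor p21, had 783 CPM (982 counts) with hairpin 1 and 289 CPM (409 counts) with hairpin 2, against 88.5 to 372 CPM (median 171) in the other 6 (log2 1.44, 95% interval 1.27 to 1.61). Mdm2, the ligase that degrades p53, had 878 CPM (1102 counts) with hairpin 1 and 377 CPM (535 counts) with hairpin 2, against 190.4 to 445 CPM (median 290.2) (log2 1.22, 95% interval 1.07 to 1.37). Trp53inp1 had 1892 CPM (2374 counts) with hairpin 1 and 829.5 CPM (1176 counts) with hairpin 2, against 199 to 432 CPM (median 275), where both hairpins lay above the others (log2 1.19, 95% interval 1.09 to 1.29). Gadd45a, a stress-induced growth arrest gene, had 3232 CPM (4056 counts) with hairpin 1 and 1468 CPM (2081 counts) with hairpin 2 (log2 1.14, 95% interval 1.06 to 1.22). Eda2r, a death receptor, had 98.8 CPM (124 counts) with hairpin 1 and 33.2 CPM (47 counts) with hairpin 2 (log2 1.56, 95% interval 1.08 to 2.09). The summed level was 9728 CPM with hairpin 1 and 5393 CPM with hairpin 2, against 2948 to 4563 CPM in the other 6. Trp53 itself had 137 counts with hairpin 1 and 158 with hairpin 2, with a log2 difference of -0.03 that changes sign with the scaling. Among 28 tested apoptosis genes 1 was higher, Bnip3, at 130 counts with hairpin 1 and 46 with hairpin 2 (log2 1.66), and among 36 of the integrated stress and unfolded protein response 1 was higher, the factor Atf5, at 866 counts with hairpin 1 and 397 with hairpin 2 (log2 1.30). A single call in lists of 28 and 36 genes is near the 1.98% of all genes tested.

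**Figure D4:**
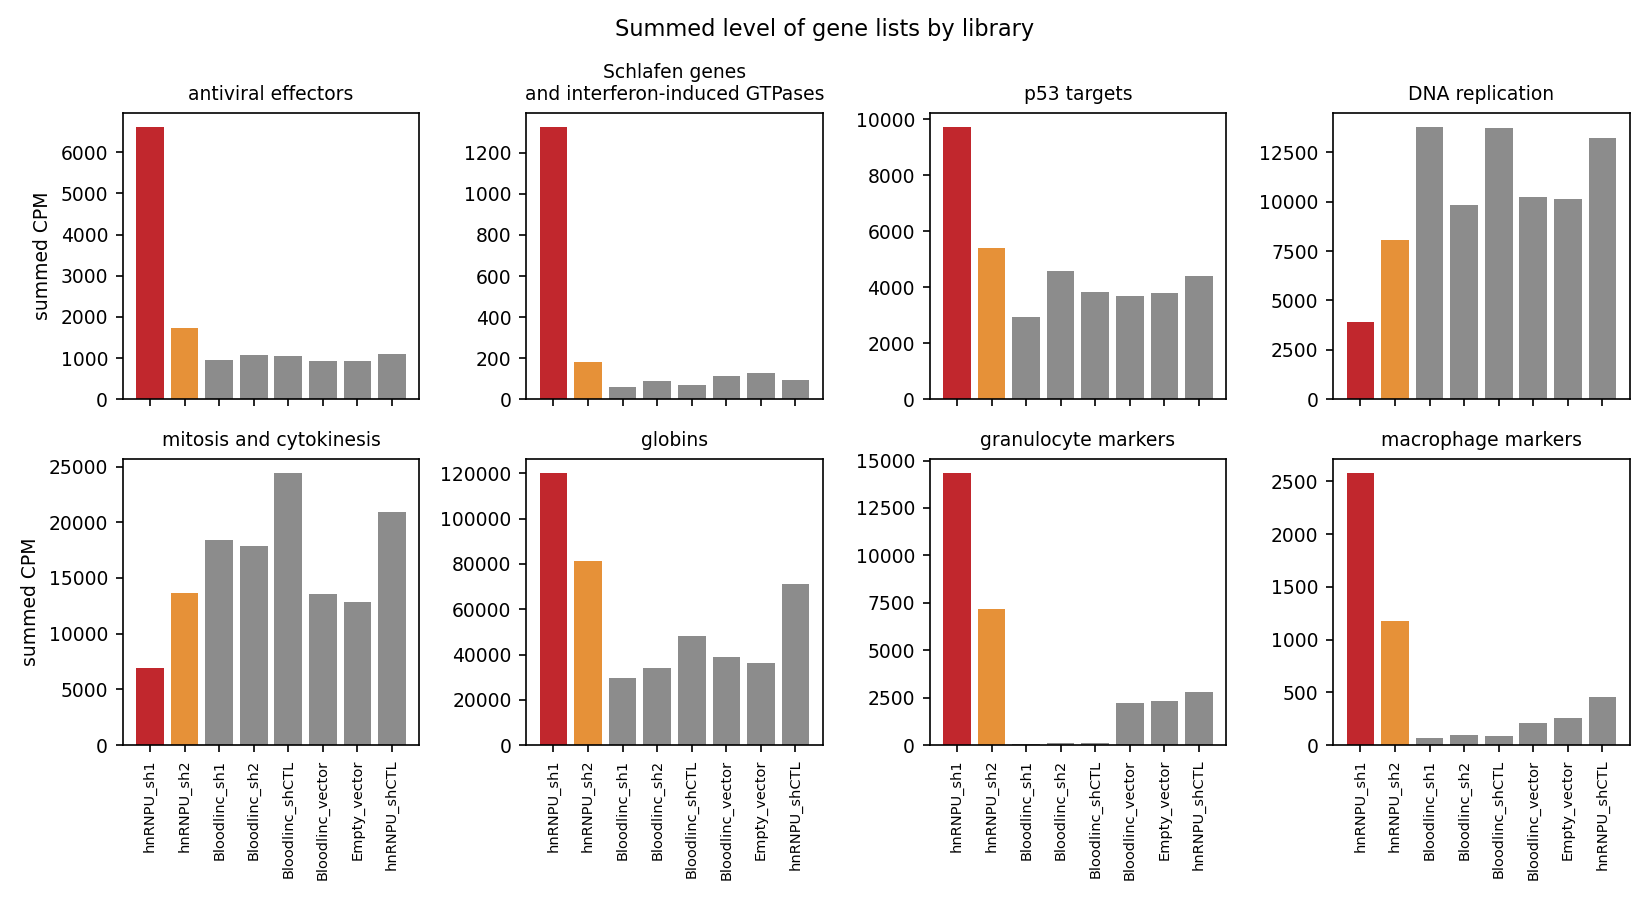
Summed CPM of 8 gene lists in each of the 8 libraries, hnRNPU hairpin 1 in red, hnRNPU hairpin 2 in orange and the other 6 in grey. Antiviral effectors reach 6625 CPM with hairpin 1 and 1723 CPM with hairpin 2. Their sums, like those of granulocyte and macrophage markers, are above the other 6 libraries with both hairpins.

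Markers of other blood cells differed by cell type. Granulocyte markers were higher with hairpin 1 in 7 of 23 tested members and lower in 0, beside 1.98% and 3.94% of all genes tested. Their median was 0.91, and 2 of the 7, Camp and Ltf, held under every scaling. Of 25 matched markers 1, Ly6g, had 0 counts in both libraries. Their sum was 14366 CPM with hairpin 1 and 7202 CPM with hairpin 2, against 69.1 to 2781 CPM in the other 6. Ngp, a granule protein of neutrophil precursors, had 2160.3 CPM (2711 counts) with hairpin 1 and 880.3 CPM (1248 counts) with hairpin 2, against 1.53 to 317 CPM (median 118) in the other 6 (log2 1.29, 95% interval 1.20 to 1.39). Ltf, lactoferrin, had 1748 CPM (2194 counts) with hairpin 1 and 600.3 CPM (851 counts) with hairpin 2 (log2 1.54, 95% interval 1.43 to 1.66), Camp, the cathelicidin, had 516 CPM (648 counts) with hairpin 1 and 163 CPM (231 counts) with hairpin 2 (log2 1.66, 95% interval 1.45 to 1.89), and Fpr1, a chemotactic receptor, had 29 counts with hairpin 1 and 6 with hairpin 2 (log2 2.35). Mpo and Elane, enzymes of the primary granules, were not past 2-fold. Mpo had 586 CPM (736 counts) with hairpin 1 and 1022 CPM (1449 counts) with hairpin 2 (log2 -0.80, 95% interval -0.93 to -0.67), and Elane had 45 counts with hairpin 1 and 81 with hairpin 2 (log2 -0.67), against a median of -0.49 over all genes tested. Both hairpins thus exceeded every other library in the summed granulocyte level.

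Macrophage markers were higher in 2 of 10 tested members, beside 1.98% of all genes tested, and lower in 0, and 0 held under every scaling. Their sum was 2583 CPM with hairpin 1 and 1179 CPM with hairpin 2, against 63.4 to 456 CPM. Lyz2, a lysozyme that granulocytes also make, gave most of it, with 1985 CPM (2491 counts) with hairpin 1 and 794 CPM (1125 counts) with hairpin 2 (log2 1.32, 95% interval 1.22 to 1.43), and Fcgr4 had 25 counts with hairpin 1 and 4 with hairpin 2 (log2 2.67). Of 30 matched markers 6, C1qa, C1qc, Cd163, Timd4, Mertk and Aif1, had 0 counts in both libraries. At this depth that leaves up to 2.39 CPM with hairpin 1 and 2.12 CPM with hairpin 2. All 10 tested members had a positive log2 difference. The untested markers had fewer than 20 counts. Since the minimum is on the sum, a marker low in one library could enter through the other. Of the 30 matched markers, 10 had 0 counts with hairpin 1 and 8 had 0 counts with hairpin 2. Hairpin 1 lay above the range of the other 6 libraries in all 10 tested members, and hairpin 2 in 4. Megakaryocyte markers were higher in 2 of 17, Tubb1 with 28 counts with hairpin 1 and 6 with hairpin 2 and Rab27b with 59 counts with hairpin 1 and 18 with hairpin 2. Of 4 tested dendritic markers 2 were higher, Zbtb46 with 147 counts with hairpin 1 and 50 with hairpin 2 and Bst2, with 53 counts with hairpin 1 and 8 with hairpin 2, which is also an interferon-induced gene. Zbtb46 had 26.0 to 77.0 CPM (median 51.2) in the other 6 libraries. Hairpin 2 (35.3 CPM) lay within that range and hairpin 1 (117 CPM) above it. Of 5 tested endothelial markers 1 was higher, the receptor Tek (27 counts with hairpin 1 and 4 with hairpin 2). The 6 tested mast cell markers, 14 of stem and early progenitors and 2 of stroma had 0 members past 2-fold, and Hdc, a mast cell enzyme, had 94 counts with hairpin 1 and 141 with hairpin 2 (log2 -0.41, a sign that changes with the scaling). Lymphoid and hepatocyte markers had no member with 20 counts, and summed to 24.7 CPM with hairpin 1 and 13.4 CPM with hairpin 2 (lymphoid) and to 7.17 CPM with hairpin 1 and 8.46 CPM with hairpin 2 (hepatocyte). The part of these cells in the interferon, p53 or proliferation differences was not tested.

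Globin genes, which define the labelled erythroid cells, took a large part of both libraries. The adult beta-globin gene Hbb-bs had 72590.4 CPM (91095 counts) with hairpin 1 and 48067 CPM (68142 counts) with hairpin 2, against 21119.5 to 41559 CPM (median 26128) in the other 6 (log2 0.59, 95% interval 0.58 to 0.61). Hba-a1 had 13274 CPM (16658 counts) with hairpin 1 and 9519.9 CPM (13496 counts) with hairpin 2 (log2 0.48, 95% interval 0.45 to 0.51). Together the 10 matched globin genes summed to 120358 CPM with hairpin 1 and 81439.9 CPM with hairpin 2, against 29502 to 71219.8 CPM in the other 6. Globins thus took a larger part of the protein-coding counts with hairpin 1, and the remaining genes a smaller one on the CPM scale; removal of the 20 most abundant genes moved the median of all genes to -0.38. Of 8 tested globin genes 1 passed 2-fold and 0 were higher. It was Hbb-y, the embryonic beta-like globin (chromosome 7, 103851749 to 103853216), which had the lowest difference of all named genes, with 2.39 CPM (3 counts) with hairpin 1 and 60.0 CPM (85 counts) with hairpin 2. With 3 counts for hairpin 1 the ratio was 0.0399 (95% interval 0.00806 to 0.121), and it held under every scaling. The other 6 libraries ranged over 2.59 to 90.5 CPM (median 4.83), so hairpin 2 lay inside their span and hairpin 1 at its lower end. The neighbouring Hbb-bh1 had 68.5 CPM (86 counts) with hairpin 1 and 79.0 CPM (112 counts) with hairpin 2 (log2 -0.20, a sign that changes with the scaling), against 6.18 to 1178 CPM (median 83.8).

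Genes of late red cell maturation were mostly above zero: 27 of 36 tested members had a positive log2 difference and the median was 0.52, yet 1 was higher and 2 were lower past 2-fold. These counts are near the 1.98% higher and 3.94% lower over all genes tested. Under TMM 11 of the 36 were higher, beside 4.03% of all genes tested. Bpgm, which makes 2,3-bisphosphoglycerate in red cells, had 2428 CPM (3047 counts) with hairpin 1 and 1112 CPM (1577 counts) with hairpin 2 (log2 1.13, 95% interval 1.04 to 1.21). Car1, carbonic anhydrase 1, had 9.56 CPM (12 counts) with hairpin 1 and 64.2 CPM (91 counts) with hairpin 2, against 28.2 to 69.3 CPM (median 41.5) in the other 6 (log2 -2.70, 95% interval -3.75 to -1.87). Hemgn, an erythroid nuclear protein, had 199 CPM (250 counts) with hairpin 1 and 628 CPM (890 counts) with hairpin 2 (log2 -1.65, 95% interval -1.86 to -1.45). Xpo7, a nuclear exportin of maturing erythroblasts, had 3750.1 CPM with hairpin 1 and 2081 CPM with hairpin 2 (log2 0.85), short of 2-fold with CPM.

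Membrane genes divided. Of 30 tested, 1 was higher and 4 were lower, beside 1.98% and 3.94% of all genes tested, and 2 of the lower held under every scaling. Aqp1, the water channel, had 6.37 CPM (8 counts) with hairpin 1 and 60.0 CPM (85 counts) with hairpin 2, against 14.3 to 117 CPM (median 36.3) in the other 6 (log2 -3.16, 95% interval -4.49 to -2.19). Slc29a1, a nucleoside transporter, had 21.5 CPM (27 counts) with hairpin 1 and 93.1 CPM (132 counts) with hairpin 2 against 189 to 311 CPM (median 199), so both hairpins lay below the others (log2 -2.09, 95% interval -2.77 to -1.51). Xk had 194 CPM (244 counts) with hairpin 1 and 617 CPM (874 counts) with hairpin 2 (log2 -1.66, 95% interval -1.88 to -1.46), and here hairpin 2 lay above the 129 to 287 CPM (median 197) of the others. Ermap had 539 counts with hairpin 1 and 1804 with hairpin 2 (log2 -1.57). The 1 higher member was Slc2a1, the glucose transporter GLUT1, with 2371 CPM (2976 counts) with hairpin 1 and 917 CPM (1300 counts) with hairpin 2 (log2 1.37, 95% interval 1.28 to 1.47), both inside the 759 to 7488 CPM (median 2962) of the other 6. Band 3, encoded by Slc4a1, had 9379.9 CPM with hairpin 1 and 9044 CPM with hairpin 2 (log2 0.05), and this small difference changes sign with the scaling.

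Most iron and heme genes were not past 2-fold. Of 22 tested iron genes 1 was higher and 2 lower, beside 1.98% higher and 3.94% lower over all genes tested. Ftl1, the ferritin light chain, had 4438 CPM (5569 counts) with hairpin 1 and 2079 CPM (2948 counts) with hairpin 2 (log2 1.09, 95% interval 1.03 to 1.16). Steap3, the ferrireductase of the transferrin cycle, had 16.7 CPM (21 counts) with hairpin 1 and 92.4 CPM (131 counts) with hairpin 2 (log2 -2.44, 95% interval -3.20 to -1.79) and held under every scaling, and Slc11a2, the iron transporter DMT1, had 28 counts with hairpin 1 and 114 with hairpin 2 (log2 -1.83). Tfrc, the transferrin receptor, had 2058 CPM with hairpin 1 and 3774 CPM with hairpin 2 (log2 -0.88, not past 2-fold), both below the 4190.4 to 13555 CPM (median 7647) of the other 6. Of 20 heme synthesis genes 3 were lower, the enzymes Uros (93 counts with hairpin 1 and 277 with hairpin 2) and Alad (224 counts with hairpin 1 and 651 with hairpin 2) and the carrier Slc25a38 (43 counts with hairpin 1 and 140 with hairpin 2), and 0 higher. Under TMM 0 of the 20 were lower and 2 were higher, and 0 held under every scaling. The median of -0.49 matched that of all genes and turned positive under DESeq2's size factors and centring. Alas2, which starts heme synthesis in erythroid cells, had 8922 CPM with hairpin 1 and 5525 CPM with hairpin 2 (log2 0.69).

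Erythroid transcription factors had 3 of 28 members lower and 0 higher, beside 3.94% and 1.98% of all genes tested. Under TMM 0 of these 28 factors were lower and 2 higher, beside 0.831% and 4.03% of all genes tested, and 0 held under every scaling. Their median of -0.23 changes sign with the scaling. Gfi1b, a repressor, had 45.4 CPM (57 counts) with hairpin 1 and 142 CPM (202 counts) with hairpin 2, against 149 to 253 CPM (median 173) in the other 6 (log2 -1.64, 95% interval -2.10 to -1.22). Bcl11a, a repressor of embryonic and fetal globin genes, had 23.9 CPM (30 counts) with hairpin 1 and 77.6 CPM (110 counts) with hairpin 2, against 55.3 to 152 CPM (median 77.8) (log2 -1.68, 95% interval -2.33 to -1.10), and Tcf3 had 31 counts with hairpin 1 and 132 with hairpin 2 (log2 -1.90). Gata1 and Klf1, central activators, had log2 differences of -0.42 and -0.68, not past 2-fold, and that of Gata1 changes sign with the scaling. In erythropoietin signalling 2 of 23 were higher, Spry1 (118 counts with hairpin 1 and 43 with hairpin 2) and Gadd45a, and 2 lower, the hormone gene Erfe (7 counts with hairpin 1 and 41 with hairpin 2) and the receptor Epor (33 counts with hairpin 1 and 113 with hairpin 2). Under TMM 0 of these 23 were lower and 2 higher, and 0 held under every scaling. The growth factor receptor chain Csf2rb, outside the lists, had 975 CPM (1223 counts) with hairpin 1 and 248 CPM (351 counts) with hairpin 2, against 174 to 537 CPM (median 339.6) (log2 1.98, 95% interval 1.80 to 2.15).

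The metabolic lists stand beside 1.98% higher and 3.94% lower over all genes tested. Among them, glycolysis had 3 higher of 24, Slc2a1, Bpgm and the transporter Slc2a3 (346 counts with hairpin 1 and 158 with hairpin 2), and 3 lower, the enzymes Pfkm (13 counts with hairpin 1 and 68 with hairpin 2) and Pklr (52 counts with hairpin 1 and 205 with hairpin 2) and the kinase Pdk1 (31 counts with hairpin 1 and 115 with hairpin 2). Pklr, the red cell pyruvate kinase, had 41.4 CPM with hairpin 1 and 145 CPM with hairpin 2, both below the 504 to 686 CPM (median 643) of the other 6. Under TMM 0 of the 24 glycolysis genes were lower and 3 were higher, and 0 held under every scaling. Red cell antioxidant enzymes had 1 higher of 20, Gss, which makes glutathione (414 counts with hairpin 1 and 188 with hairpin 2). Of 49 nuclear-encoded respiratory subunits 0 were past 2-fold, with a median of -0.67 and with Atp5b and Atp5a1 at log2 -0.66 and -1.01. Of 11 mitochondrially encoded subunits 0 were past it either, mt-Co1 having 12622 counts with hairpin 1 and 11608 with hairpin 2 and mt-Co3 6855 counts with hairpin 1 and 6962 with hairpin 2; their signs turn with the scaling. Of 19 mitochondrial aminoacyl-tRNA synthetases 3 were lower, Nars2 (3 counts with hairpin 1 and 29 with hairpin 2), Iars2 (49 counts with hairpin 1 and 160 with hairpin 2) and Kars (70 counts with hairpin 1 and 227 with hairpin 2). Their summed level was higher with hairpin 1, at 2697 CPM with hairpin 1 and 1975 CPM with hairpin 2, against 988 to 1615 CPM in the other 6. Most of that sum was Lars2, the leucyl enzyme, with 2222 CPM (2789 counts) with hairpin 1 and 1071 CPM (1518 counts) with hairpin 2 against 10.4 to 87.9 CPM (median 21.6), above the other 6 with both hairpins. Its interval between the hairpins reached below 2-fold (log2 1.05, 95% interval 0.96 to 1.14). Under TMM 0 of the 19 were lower and 2 were higher, Lars2 and Fars2 (148 counts with hairpin 1 and 76 with hairpin 2). Metallothioneins and zinc transporters gave 2 lower of 11, the transporters Slc39a8 (43.0 CPM (54 counts) with hairpin 1 and 206 CPM (292 counts) with hairpin 2) and Slc30a10 (37 counts with hairpin 1 and 195 with hairpin 2), and both held under every scaling.

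Genes of RNA processing, the field of hnRNP U, gave lower calls at rates of 2 of 26 in the hnRNP family and 5 of 45 among core splicing factors, beside 3.94% of all genes tested. In both lists 0 were higher and 0 held under every scaling. The medians were -0.74 and -0.84, against -0.49 for all genes. Hnrnpab had 178 CPM (224 counts) with hairpin 1 and 516 CPM (731 counts) with hairpin 2 (log2 -1.53, 95% interval -1.75 to -1.31). Ptbp1, which represses exons, had 129 CPM (162 counts) with hairpin 1 and 312 CPM (442 counts) with hairpin 2 (log2 -1.27, 95% interval -1.54 to -1.01). The 5 splicing factors were Snrpf, Sf3a1, Srsf10, Sf3b3 and Srsf6, with log2 differences of -2.27, -1.47, -1.45, -1.43 and -1.33. Of 30 tested nuclear architecture genes 0 were past 2-fold. The cohesin release factor Wapl and the cohesin subunit Stag2 had -0.14 and -0.03, signs that change with the scaling. In the small RNA machinery 1 of 13 was lower, Drosha, the nuclear enzyme that cuts primary microRNAs, with 28 counts with hairpin 1 and 98 with hairpin 2 (log2 -1.62). Under TMM 0 of these 13 were lower. Heat shock chaperones gave 4 lower of 18, with 270 counts with hairpin 1 and 1022 with hairpin 2 for Hsp90aa1, 363 counts with hairpin 1 and 945 with hairpin 2 for Hspa8, 92 counts with hairpin 1 and 335 with hairpin 2 for Hspd1 and 75 counts with hairpin 1 and 255 with hairpin 2 for Stip1. Of these Hsp90aa1 held under every scaling (log2 -1.74, 95% interval -1.94 to -1.55). Cytosolic ribosomal proteins gave 0 calls among 79, with a median of -0.09. Rpl4 and Rplp0 had -0.17 and 0.07. All of these are near 0 and of a sign that changes with the scaling. Immediate early genes gave 0 of 16, with Ppp1r15a at 0.70 and Btg2 at 0.76, and Y-linked genes 0 of 4, with Eif2s3y at -0.48, a sign that changes with the scaling.

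The 15 lowest genes with at least 20 CPM came from many functions. After Hbb-y came Wdr4 and Mettl1, which together form an enzyme that methylates guanosine in transfer RNA. Wdr4 had 1.59 CPM (2 counts) with hairpin 1 and 38.1 CPM (54 counts) with hairpin 2, for a ratio of 0.0418 (95% interval 0.00494 to 0.159), and Mettl1 had 2 counts with hairpin 1 and 30 with hairpin 2, for a ratio of 0.0753 (95% interval 0.00872 to 0.297). In the other 6 libraries Wdr4 had 15.4 to 61.0 CPM (median 28.9), so hairpin 1 lay below and hairpin 2 within. Ficd, an enzyme of the endoplasmic reticulum that modifies the chaperone BiP, was unlike them: it had 12.0 CPM (15 counts) with hairpin 1 and 114 CPM (161 counts) with hairpin 2, against 2.25 to 7.3 CPM (median 3.58) in the other 6, so hairpin 2 was the library that stood out. Its log2 difference was -3.21 (95% interval -4.12 to -2.48). Pla2g4c, a phospholipase, had 2.39 CPM (3 counts) with hairpin 1 and 40.9 CPM (58 counts) with hairpin 2, against 8.14 to 19.1 CPM (median 9.59), with hairpin 2 above and hairpin 1 below the others (ratio 0.0584, 95% interval 0.0117 to 0.179). The remaining genes were Acp5 (6 counts with hairpin 1 and 87 with hairpin 2), Atp1b2 (2 counts with hairpin 1 and 31 with hairpin 2), Ndufaf4 (4 counts with hairpin 1 and 51 with hairpin 2), Atp7b (6 counts with hairpin 1 and 68 with hairpin 2) and Aqp1, and Ryk (6 counts with hairpin 1 and 59 with hairpin 2), Nudcd1 (7 counts with hairpin 1 and 66 with hairpin 2), Tnk2 (10 counts with hairpin 1 and 92 with hairpin 2), Fam83g (5 counts with hairpin 1 and 47 with hairpin 2) and Nars2. Of the 15, Nars2 alone did not hold under every scaling.

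Cd274, outside the lists, encodes PD-L1 and is known as interferon-inducible. It had 76.5 CPM (96 counts) with hairpin 1 and 6.35 CPM (9 counts) with hairpin 2 (log2 3.52, 95% interval 2.61 to 4.76).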

How the data were processed

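Libraries were grouped by their labels, 1 sample per group, and hnRNPU_sh1 was compared with hnRNPU_sh2. The submitters' processing notes name TopHat2 2.0.11, HTSeq and the build mm9; the HTSeq version, annotation release and strand setting are not given in the sources used here. The authors deposited raw HTSeq counts for 37620 gene IDs and 5 summary entries per library, which were left out of all totals. GENCODE M21 gave symbols, biotypes and GRCm38 positions for 87.4% of IDs. Unmatched IDs (32.9% of gene counts with hairpin 1 and 23.1% with hairpin 2) were used only in totals of gene counts and in CPM over all gene IDs. CPM was computed over protein-coding genes.

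The log2 difference used a prior count of 0.5, and a gene needed at least 20 counts in the 2 libraries together. Its interval is the exact conditional binomial (Clopper-Pearson) 95% interval of the count ratio (scipy 1.17.1), checked on simulated data; levels carry exact Poisson intervals. Alternative scalings used edgeR 4.0.16 (TMM) and DESeq2 1.42.0 (size factors); neither tool's test was run. With 1 library per arm no replicate could be left out.

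The comparison, its 43 gene lists (33 entries unmatched) and the alternatives were chosen with earlier results of these data known. Named were Hnrnpu and its paralogs, the 15 highest and 15 lowest called genes of at least 20 CPM, and up to 4 called members per list (2 by mean CPM where none was called), predicted models counted only (4 higher, 1 lower). Other genes named were chosen after their values were seen. Results for a few genes that this rule would name are not reported here.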

Additional observations from a re-analysis of the deposited data

Results flagged for a closer look

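Much of both libraries lay outside the measurement used above. Of the uniquely placed counts, 89.7% with hnRNPU hairpin 1 and 86.6% with hnRNPU hairpin 2 fell in no gene, while the share was 21.7% to 30.1% elsewhere. Within genes, 32.6% of counts with hairpin 1 and 22.6% with hairpin 2 fell on 2 gene IDs that are absent from the annotation used, against 0.0153% to 0.122% in the other 6. Mitochondrial ribosomal RNA took 20.03% of gene counts with hairpin 1 and 18.7% with hairpin 2, inside the 18.1% to 28.9% of the other 6. What these counts are was not tested. The counts in no gene enter no scaling. Those on the 2 IDs and in mitochondrial ribosomal RNA enter only the scaling to all gene IDs.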

How the results depend on the processing

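The count of higher genes, 169 with CPM over protein-coding genes, was 344 with TMM, 411 with DESeq2's size factors, 94 with CPM over all gene IDs and 407 when centred on the median of all genes, a setting added after the data were seen. The count of lower genes, 337 with CPM, was 71, 47, 1022 and 50 under the same settings, and 211 without the 20 most abundant genes. An interval past 1.5-fold gave 342 higher and 1239 lower, past 4-fold 46 higher and 12 lower, and a 99% interval 177 lower; a wider or narrower threshold changes counts by construction. The other settings stayed within 1.5 times (no filter, at least 50 counts, annotated IDs without mitochondrial ribosomal RNA, nuclear genes). Reversals are listed for gene lists and genes named by rule, and only where the interval with CPM excluded 0. For a list the medians of its members' interval bounds were used. Other values near 0 change sign as well. Signs reversed under TMM, DESeq2's size factors and centring for the median of mitochondrially encoded subunits (0.14, 0.23 and 0.22), Wapl (0.28, 0.36 and 0.35), Hdc (0.0106, 0.0949 and 0.0851) and Rpl4 (0.25, 0.33 and 0.32). Under DESeq2's size factors and centring they reversed for the median of heme synthesis (0.0147 and 0.00495) and Eif2s3y (0.0203 and 0.0105), and under CPM over all gene IDs for mt-Co1 (-0.0452) and mt-Co3 (-0.19). Each follows from the constant shift that a scaling adds. Leaving out a library was not possible, since each arm is 1 library. No paired analysis was possible because each group holds 1 library. Depth limits low genes: the median tested gene had 40 counts with hairpin 1 and 64 with hairpin 2.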

Other observations

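Genes of ribosome assembly were a large group on the lower side. The 3 lists used here (ribosome biogenesis, exosome and tRNA modification, nucleotide synthesis) were made after the genes lowest with hairpin 1 had been seen, so their counts describe and support nothing. Over all genes tested 3.94% were lower with CPM and 0.831% under TMM. Of 89 tested ribosome biogenesis genes 29 were lower with hairpin 1 and 0 higher, with a median log2 difference of -1.35 against -0.49 for all genes, and 86 lay below that median. Under TMM 7 were lower, and 1 held under every scaling, the snoRNP core protein Nop58 with 34.3 CPM (43 counts) with hairpin 1 and 162 CPM (230 counts) with hairpin 2, against 157 to 504 CPM (median 188) in the other 6 libraries. The nucleolar proteins Ncl and Npm1 had 163 CPM (204 counts) with hairpin 1 and 400.0 CPM (567 counts) with hairpin 2 (Ncl) and 277 CPM (348 counts) with hairpin 1 and 664 CPM (942 counts) with hairpin 2 (Npm1). The summed level of the list was 2659.9 CPM with hairpin 1 and 6825 CPM with hairpin 2, against 5121 to 19228 CPM in the other 6.

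Of 30 tested exosome and tRNA modification genes 6 were lower and 0 higher, beside 3.94% lower over all genes tested. Among the 6 were the methyltransferase Nsun2 with 56.6 CPM (71 counts) with hairpin 1 and 207 CPM (294 counts) with hairpin 2 and Alkbh8 with 16 counts with hairpin 1 and 100 with hairpin 2. Of 23 nucleotide synthesis genes 8 were lower and 0 higher, among them Cad, which starts pyrimidine synthesis, with 27.1 CPM (34 counts) with hairpin 1 and 114 CPM (162 counts) with hairpin 2, and Ppat, which starts purine synthesis, with 28 counts with hairpin 1 and 106 with hairpin 2.

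The nuclear noncoding RNAs Malat1 and Neat1 lay above the other 6 libraries with both hairpins. On the CPM scale of protein-coding counts, Malat1 had 47833 with hairpin 1 and 29851 with hairpin 2, against 7928 to 17281 in the other 6 libraries. Neat1 had 3759 with hairpin 1 and 1684 with hairpin 2, against 481 to 921. Xist, which hnRNP U is known to anchor to the inactive X chromosome, had 334 with hairpin 1 and 543 with hairpin 2, both within the 212 to 899 of the others.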
